A study of Mus musculus with 8 samples.

Results

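The genes described here are 51 genes of the G2/M transition and of mitosis, chosen by symbol from a fixed list and found as 51 of the 32285 rows of the count matrices. In the epithelial cells defined below, all 51 carried over 100 UMIs (unique molecular identifiers, each counting 1 captured transcript), from 894 for Gtse1 to 173097 for Hmgb2 over the 8 libraries. The genes lie on 18 mouse chromosomes. The list was fixed by name and not by a measured value, although it was drawn up with earlier results of these data known.

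Tongue epithelia of 8 to 16 week old littermate mice were dissociated, sorted for viable cells on size and viability, and profiled by droplet single-cell RNA sequencing of transcript 3′ ends. The 4 genotypes had 2 mice each, and the libraries are called N1, N2, E1, E2, Y1, Y2, EY1 and EY2. All groups, the controls included, carried Krt14-CreERT/LSL-rtTA, so that tamoxifen (3 doses into the tongue) and doxycycline chow switched on tetON transgenes in Krt14-expressing basal epithelial cells and their descendants only. N carried no further oncogenic transgene, E carried tetON_E6-E7 (the E6 and E7 oncogenes of human papillomavirus 16), Y carried tetON_YAP1S127A (a YAP1 that cannot be phosphorylated at the site that retains it in the cytoplasm), and EY carried both, all sampled 15 days after induction. The title of the N2 library lists more than 1 animal number, so this library may pool animals.

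Entry into mitosis is driven by cyclin-dependent kinase CDK1 bound to a B-type cyclin, and exit from it by the anaphase-promoting complex (APC/C), a ubiquitin ligase that marks cyclins and other mitotic proteins for destruction. In between, Aurora and checkpoint kinases, kinetochores, spindle motors and condensins attach and part the chromosomes, the nuclear envelope is taken down and rebuilt, and the cytokinesis machinery cuts the cell apart. The genes for these proteins are transcribed late in the cycle, by complexes that bind CHR and CCAAT elements close to the start site. In stratified tongue epithelium cell division is a property of the basal and lowest suprabasal layers, and E7 and active YAP are both known to push epithelial cells into the cycle.

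The 51 genes were read by role. The CDK1 group was Cdk1, Ccnb2, Cks1b, Cks2, Cdc25c and Cdca3, and the APC/C and ubiquitin group Cdc20, Ube2c and G2e3. Aurora and checkpoint kinases with the chromosomal passenger complex were Aurka, Aurkb, Birc5, Cdca8, Ttk, Bub1 and Nek2. Kinetochore and centromere genes were Ndc80, Nuf2, Cenpa, Cenpe, Cenpf and Hjurp. Spindle motors and microtubule proteins were Kif11, Kif2c, Tpx2, Nusap1, Ckap2, Ckap2l, Ckap5, Tacc3, Hmmr, Dlgap5, Psrc1, Gtse1 and Tubb4b, and the cytokinesis genes Anln, Ect2, Kif23 and Kif20b. Chromosome structure and chromatin genes were Top2a, Smc4, Ncapd2, Mki67, Hmgb2, Cbx5, Anp32e, Ctcf and Cdca2, and nuclear envelope genes Lbr, Tmpo and Rangap1.

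The promoters show what these genes share in sequence. The 250 bases before the RefSeq start site (build GRCm38.p6, the sequence of mm10) were at hand for 45 of the 51 genes, with no entry for Cdc25c, Aurkb, Tpx2, Dlgap5, Smc4 and Cdca2. A CHR (TTTGAA, either strand) was present in 42.2% of the 45 against 16.3% of all 27025 genes with an entry and 10.7% of the 10335 that were also tested in epithelial cells. A CCAAT box (CCAAT, either strand) was present in 75.6% against 34.5% and 36.5%, and at least 2 of them in 57.8% against 10.5% and 13.6%. Both elements were found in 17 of the 45, or 37.8%, against 5.73% of all genes and 4.12% of those tested, and no CHR overlapped a CCAAT box. Of the 24 CHR matches in these genes, 15 lay within 100 bases of the start site. The E2F letters TTTCGCGC and TTTGGCGC were found in 1 of the 45 each (2.22%), against 0.255% and 0.437% of all genes and 0.493% and 0.832% of those tested. The TEAD letters GGAATG, the core bound by the partners of YAP, were found in 13.3% against 12.6% and 10.6%. A match of letters is a description of the sequence and does not show that a factor bound there.

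The promoters below are the 5 with the most matches among the genes with both elements, followed by Tmpo and Lbr, the 2 genes that passed the test in pooled epithelial cells, Tmpo without a CHR in this window. The RefSeq starts used for Tmpo, Lbr, Cks1b and Ube2c lie inside the gene models given for them, so that their windows fall wholly (Tmpo, Lbr) or partly (Cks1b, Ube2c) within those models. Each runs 5′ to 3′ on the strand of the gene and ends at the base before the start site, and capitals mark the CHR (TTTGAA or TTCAAA) and the CCAAT box (CCAAT or ATTGG). In Ube2c a pair of CCAAT boxes on opposite strands overlap.
Top2a (chr11:99024190-99024439, minus strand): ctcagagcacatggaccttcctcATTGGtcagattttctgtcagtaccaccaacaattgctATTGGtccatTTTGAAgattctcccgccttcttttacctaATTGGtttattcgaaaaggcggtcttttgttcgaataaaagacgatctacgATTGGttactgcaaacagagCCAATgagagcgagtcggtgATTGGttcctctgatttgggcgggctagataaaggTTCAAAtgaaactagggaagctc
Ube2c (chr2:164769679-164769928, plus strand): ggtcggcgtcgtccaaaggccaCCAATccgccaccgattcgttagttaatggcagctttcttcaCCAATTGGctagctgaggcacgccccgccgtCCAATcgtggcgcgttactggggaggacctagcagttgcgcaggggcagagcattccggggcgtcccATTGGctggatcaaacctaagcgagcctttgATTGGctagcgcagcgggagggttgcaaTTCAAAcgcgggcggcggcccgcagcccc
Cks1b (chr3:89418292-89418541, minus strand): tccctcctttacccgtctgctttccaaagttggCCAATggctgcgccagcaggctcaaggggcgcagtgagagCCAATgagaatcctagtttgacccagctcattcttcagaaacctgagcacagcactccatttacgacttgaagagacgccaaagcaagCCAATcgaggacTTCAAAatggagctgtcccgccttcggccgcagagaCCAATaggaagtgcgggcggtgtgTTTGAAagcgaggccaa
Hmgb2 (chr8:57511593-57511842, plus strand): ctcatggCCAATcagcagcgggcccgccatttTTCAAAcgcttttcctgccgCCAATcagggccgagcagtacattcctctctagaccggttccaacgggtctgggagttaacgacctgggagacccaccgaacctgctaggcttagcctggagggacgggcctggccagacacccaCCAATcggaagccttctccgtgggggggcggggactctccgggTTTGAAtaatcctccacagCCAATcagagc
Tubb4b (chr2:25224703-25224952, minus strand): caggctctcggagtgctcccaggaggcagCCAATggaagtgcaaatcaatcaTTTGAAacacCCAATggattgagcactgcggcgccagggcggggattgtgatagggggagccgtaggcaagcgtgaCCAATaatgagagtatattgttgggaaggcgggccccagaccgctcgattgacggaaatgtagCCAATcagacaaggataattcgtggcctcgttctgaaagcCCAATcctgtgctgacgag
Tmpo (chr10:91171620-91171869, minus strand): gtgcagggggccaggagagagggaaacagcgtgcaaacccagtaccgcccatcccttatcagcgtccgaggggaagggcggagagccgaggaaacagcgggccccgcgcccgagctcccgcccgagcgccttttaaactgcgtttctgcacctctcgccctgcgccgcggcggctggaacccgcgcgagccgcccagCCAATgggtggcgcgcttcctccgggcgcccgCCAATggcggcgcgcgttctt
Lbr (chr1:181842402-181842651, minus strand): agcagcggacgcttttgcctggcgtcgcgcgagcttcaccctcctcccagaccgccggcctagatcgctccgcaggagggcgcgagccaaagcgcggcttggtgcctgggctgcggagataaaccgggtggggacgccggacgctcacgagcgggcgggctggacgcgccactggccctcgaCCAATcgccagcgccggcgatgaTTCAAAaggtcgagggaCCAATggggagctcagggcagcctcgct

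**Figure D1:**
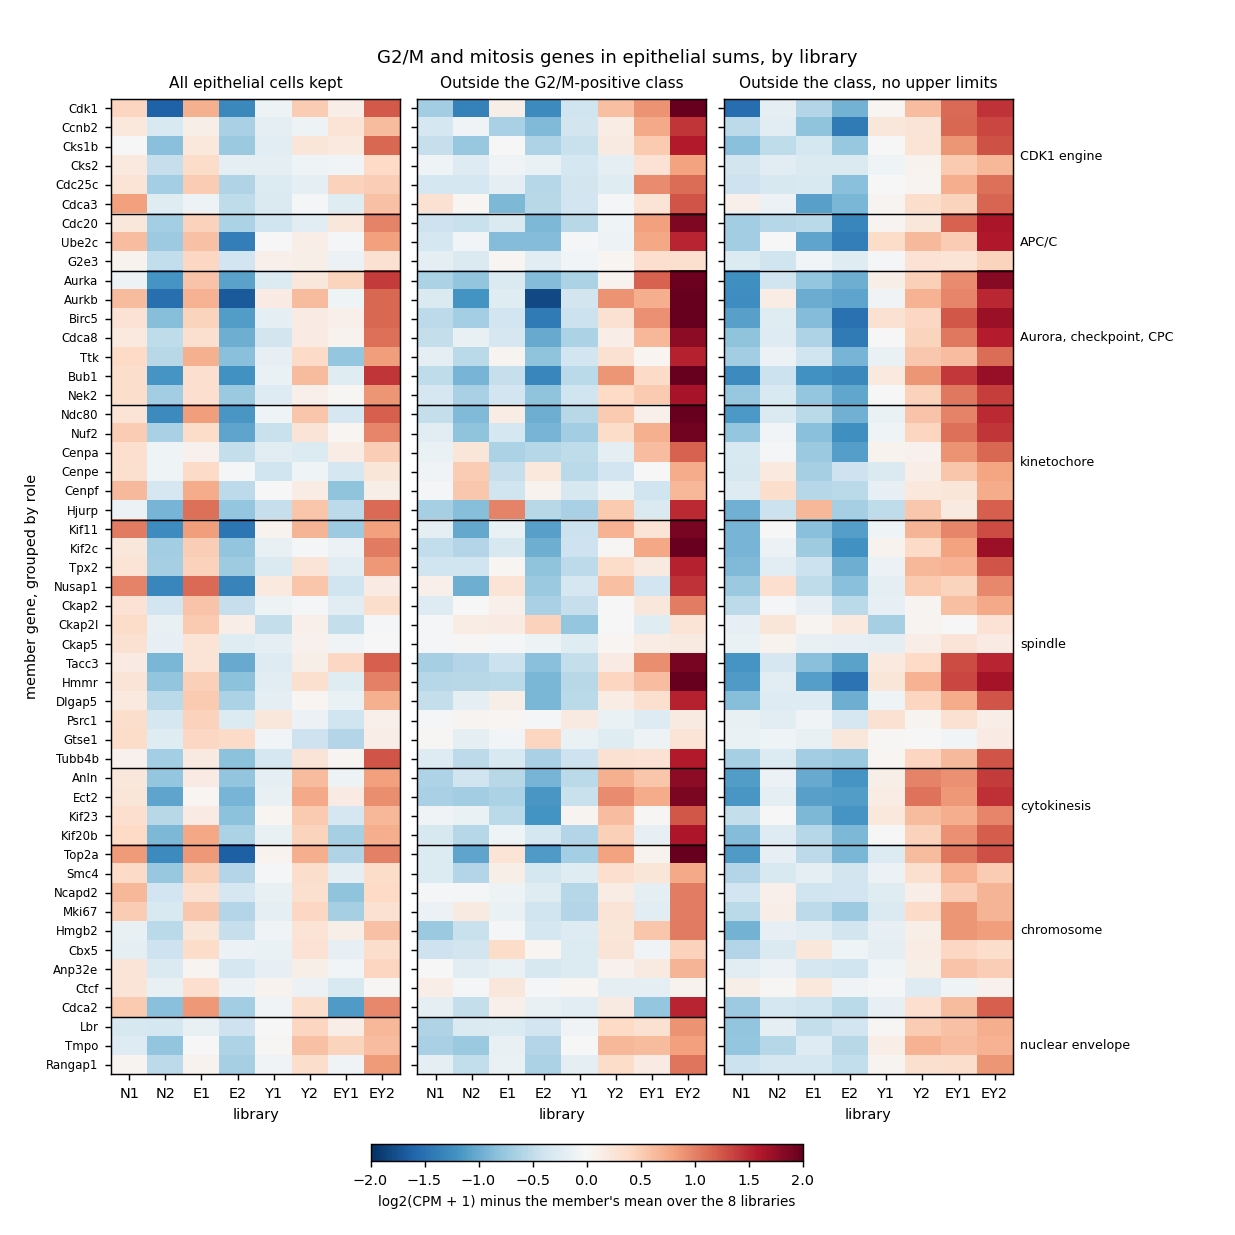
Heat maps of the 51 genes (rows, by role) in the 8 libraries (columns), coloured by log2(CPM + 1) minus the mean of the gene over the libraries, in 3 panels for all epithelial cells, those outside the G2/M-positive class, and those outside it without upper limits. In the first panel N1 and E1 stand apart from N2 and E2, and in the third both EY libraries are above both N libraries in 48 of the 51 genes. That count was not made over all genes.

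Among the 42550 barcodes of the 8 matrices, 25199 passed the limits: between 1000 and 5500 genes detected, no more than 30000 UMIs, and a mitochondrial share of UMIs up to 7%. Cells were called epithelial where Krt5, Krt14, Krt15, Krt13 and Krt6a together made up at least 0.5% of UMIs with no Ptprc UMI, which gave 12957 cells: 3447 and 415 in N, 4055 and 553 in E, 1289 and 1001 in Y, and 170 and 2027 in EY. The matrices held 46483469 to 102427359 UMIs per library, and epithelial cells a median of 12575 to 23570 UMIs. Krt5 and Krt14 stood at 3249 to 11230 CPM (counts scaled to a common library total) in all 8 epithelial sums, and Cd3e at 0 to 1.54 CPM. The basal marker Krt15 was at 552 CPM in EY2 against 2181 to 4701 in the other 7 libraries, and Trp63 at 60.3 CPM against 126 to 344. Neutrophil transcripts (6 genes) summed to 2100 and 608 CPM in the EY epithelial sums against 4.46 to 120 CPM in the other 6 libraries. Most of this was S100a8, at 1148 and 370 CPM, and S100a9, at 906 and 221 CPM. Ngp was at 37.5 and 14.7 CPM in EY and at most 0.498 CPM elsewhere, and Camp at 3.67 and 1.73 CPM against at most 0.0826. Csf3r and Cxcr2 were highest in EY1, at 2.04 and 2.85 CPM. In EY2 Csf3r was the lowest of the 8, at 0.0270 CPM, and Cxcr2 was at 0.324 CPM, within the 0.0826 to 0.623 of the other 6 libraries. Macrophage transcripts (7 genes) summed to 143 CPM in EY1, of which Lyz2 made up 131 CPM, to 8.13 CPM in EY2 and 8.46 to 27.5 CPM elsewhere. T cell transcripts (7 genes) summed to 17.5 and 32.4 CPM in EY, of which Trbc2 made up 14.3 and 27.5 CPM, against 5.59 to 20.2 CPM elsewhere. The part of these transcripts in the results below was not tested.

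The upper limits on genes and UMIs removed unequal shares of epithelial cells. They took 2.10% of N1 and 3.11% of E1, 44.0% of N2 and 41.4% of E2, 32.1% and 37.0% in Y, and 64.7% and 17.7% in EY. Between 17.4% and 53.1% of the cells removed carried the G2/M transcripts in number (the class defined below), so results are given with and without these limits. Pairs of libraries shared 2 to 19 cell barcodes. The UMIs count 3′ ends and were not divided by transcript length, so levels are compared between libraries and not between genes.

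Summed over all epithelial cells of a library, the 51 genes differed as much between libraries of 1 genotype as between genotypes. They made up 4512 and 2426 CPM in N, 5081 and 2555 in E, 3381 and 4626 in Y, and 3705 and 6099 in EY. Without the upper limits the sums were 4625 and 5158 CPM in N, 5327 and 3624 in E, 4990 and 6118 in Y, and 6430 and 6478 in EY, so that both EY libraries stood above the other 6. In a sum over cells, more cells in G2/M and more G2/M transcripts per cell cannot be told apart. The sections that follow split the cells by a count of some of these genes. Since the level of these genes in a cell decides its side, the split does not fully separate these readings either.

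Within the CDK1 group, Cks2, a small CDK-binding subunit, was at 130 and 82.6 CPM in N, 148 and 101 in E, 99.7 and 107 in Y, and 110 and 151 in EY. Its paralogue Cks1b was at 80.4 and 44.7 CPM in N, 93.2 and 47.7 in E, 69.1 and 95.8 in Y, and 92.6 and 180 in EY. In both genes the groups overlapped, and N1 and E1 lay well above N2 and E2. Ube2c, the ubiquitin-conjugating enzyme of the APC/C, was at 189 and 73.9 CPM in N, 186 and 46.6 in E, 124 and 135 in Y, and 120 and 218 in EY. Cdc20, an activator of the APC/C, was at 92.9 and 49.2 CPM in N, 110 and 50.5 in E, 59.9 and 68.7 in Y, and 93.0 and 159 in EY. In both genes N1 and E1 again lay well above N2 and E2, and EY2 was the highest.

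The chromosomal passenger subunits Cdca8 (borealin) and Birc5 (survivin) followed the same order of libraries. Cdca8 was at 113 and 69.2 CPM in N, 123 and 49.8 in E, 76.0 and 111 in Y, and 104 and 214 in EY. Birc5 was at 110 and 49.3 CPM in N, 122 and 40.5 in E, 78.5 and 100 in Y, and 95.9 and 200 in EY. EY2 held the highest value of each and EY1 lay inside the range of the other groups. At the kinetochore the order was another. Cenpf, a large protein of the outer kinetochore, was at 148 and 73.9 CPM in N, 157 and 64.9 in E, 94.6 and 104 in Y, and 53.2 and 102 in EY, so that EY1 was the lowest of the 8. Cenpa, the histone H3 variant that marks the centromere, was at 106 and 78.6 CPM in N, 89.1 and 60.2 in E, 71.4 and 69.0 in Y, and 92.6 and 118 in EY.

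Tubb4b, a β-tubulin, was at 467 and 274 CPM in N, 502 and 251 in E, 351 and 526 in Y, and 460 and 1056 in EY. Ckap2l, a spindle protein, was at 92.5 and 64.3 CPM in N, 103 and 78.8 in E, 50.9 and 77.1 in Y, and 51.2 and 70.0 in EY. Tubb4b was thus highest in EY2, whereas Ckap2l was highest in E1 and N1. Among the cytokinesis genes, Anln (anillin, which organises the contractile ring) was at 74.1 and 36.7 CPM in N, 71.0 and 36.3 in E, 54.9 and 98.5 in Y, and 58.9 and 112 in EY, and Kif23, a motor of the central spindle, at 52.0 and 27.6 in N, 45.7 and 22.6 in E, 41.8 and 58.9 in Y, and 32.1 and 64.9 in EY. For chromosome structure, Hmgb2, a DNA-bending chromatin protein, was at 680 and 515 CPM in N, 884 and 546 in E, 716 and 904 in Y, and 810 and 1131 in EY. Top2a, the topoisomerase that untangles sister DNA, was at 250 and 56.0 CPM in N, 252 and 43.6 in E, 144 and 227 in Y, and 90.2 and 277 in EY. The pair of N libraries alone thus spanned most of the range of Top2a.

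Among the nuclear envelope genes, Tmpo and Lbr separated the libraries with active YAP from those without. Tmpo (chr10:91147571-91181315, minus strand), which encodes the lamina-associated LAP2 proteins, was at 139 and 96.6 CPM in N, 167 and 109 in E, 170 and 252 in Y, and 227 and 257 in EY, with all 4 libraries that carry active YAP above all 4 that do not. Lbr (chr1:181815335-181843046, minus strand), the lamin B receptor, was at 45.3 and 44.0 CPM in N, 51.3 and 42.1 in E, 57.2 and 76.6 in Y, and 62.2 and 90.4 in EY, again without overlap. Rangap1, the activator of the Ran GTPase, was at 85.6 and 56.5 CPM in N, 86.0 and 51.2 in E, 78.0 and 105 in Y, and 78.4 and 149 in EY, where the groups overlapped.

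The tests on these sums used edgeR's quasi-likelihood test over all genes, with Benjamini-Hochberg adjustment over the 13555 genes tested, and a call is an adjusted p under 0.05. Comparing EY with N asks what both transgenes together do to the genes, and here 1 of the 51 was called, Tmpo, which rose by 1.03 on the log2 scale (SE 0.29, edgeR adjusted p = 0.0458), beside 18.8% of all genes called in either direction. The median change of the 51 was 0.50, beside -0.05 over all genes, and turned to -0.09 without EY2 and rose to 1.24 without N1. Tmpo was no longer called without any of the libraries N1, N2, E2, Y1, Y2 or EY2 in turn, with adjusted p of at most 0.206. Active YAP as a main effect over all 8 libraries (the mean of Y against N and EY against E) called 2 of the 51, Tmpo at 0.83 (SE 0.19, edgeR adjusted p = 0.0372) and Lbr at 0.65 (SE 0.16, edgeR adjusted p = 0.0395), beside 8.98% of all genes. Both calls were lost when any library other than Y1 was left out, with edgeR adjusted p of up to 0.111 for Tmpo and 0.117 for Lbr.

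In 6 further comparisons of these sums edgeR called none of the 51 genes. For E against N, beside 0.243% of all genes, 0 had an unadjusted p under 0.05 and DESeq2 called 0. For Y against N, beside 0.457% of all genes, 2 had an unadjusted p under 0.05 and DESeq2 called 0. For EY against E, beside 16.4% of all genes, 3 had an unadjusted p under 0.05 and DESeq2 called 2. For EY against Y, beside 0.0443% of all genes, 1 had an unadjusted p under 0.05 and DESeq2 called 0. The main effect of E6-E7, beside 0.406% of all genes, gave 0 with an unadjusted p under 0.05, and DESeq2 called 0. The interaction of E6-E7 and YAP, beside 0% of all genes, gave 1 with an unadjusted p under 0.05, and DESeq2 called 0. The genes nearest to a call were Lbr in EY against E at 0.72 (SE 0.23, edgeR adjusted p = 0.0665) and Cenpa in EY against Y at 0.59 (SE 0.24, edgeR adjusted p = 0.193). In E against N the genes of smallest p were at -0.70 for Cdca3 (SE 0.39) and 0.45 for Cbx5 (SE 0.25), with an edgeR adjusted p of 1.0 each, and the median of the 51 was 0.07, against -0.19 without the upper limits. Counts were also simulated from the means and depths of these libraries, with a spread that was set and not estimated from them. Changes were set only in genes well counted even in the smallest library. Among these the EY against N test found 26.0% of genes changed by 1 on the log2 scale and 100% of those changed by 2. The interaction test found 8.0% and 69.0%. These shares need not hold for weakly counted genes or for genes that vary more between libraries than the set spread.

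Without the upper limits the same sums gave more calls, among a larger share of all genes. In EY against N 10 of the 51 rose and none fell, or 19.6%, beside 20.6% of all 14816 genes tested that rose and 40.8% called in either direction. They were Cdk1, Cks1b, Aurka, Birc5, Bub1, Tacc3, Tubb4b, Lbr, Tmpo and Rangap1, led by Aurka (Aurora A) at 1.33 (SE 0.37, edgeR adjusted p = 0.0248), Tacc3, an Aurora A substrate of the spindle, at 1.01 (SE 0.22, edgeR adjusted p = 0.00986) and Cks1b at 1.0 (SE 0.20, edgeR adjusted p = 0.00688). Tacc3 was at 38.1 and 46.7 CPM in N, 43.6 and 27.0 in E, 54.2 and 58.9 in Y, and 81.9 and 88.3 in EY, with EY above every other library. Leaving out N1 left 0 of these calls, leaving out EY2 left 2, and leaving out E1 or E2 gave 17. Active YAP added to E6-E7 (EY against E) raised 22 of the 51, or 43.1%, beside 19.0% of all genes that rose and 38.7% called in either direction, with 3 left without E2 and 5 without EY2. The main effect of YAP called 15 (29.4%) beside 41.4% of all genes, of which 14 rose, beside 21.2% of all genes that rose, and Ckap2l fell by 0.39 (SE 0.13, edgeR adjusted p = 0.0384). Y against N called Tmpo, at 0.75 (SE 0.17, edgeR adjusted p = 0.0338), beside 10.2% of all genes. In these sums the share of the 51 that rose was close to that of all genes in EY against N, and above it in EY against E, where it rests on E2 and EY2.

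To split the cells by their G2/M transcripts, each cell was thinned to 2000 UMIs. It was called G2/M-positive where at least 3 of 10 of the genes (Cdk1, Top2a, Mki67, Cenpf, Nusap1, Birc5, Ube2c, Tpx2, Ccnb2 and Cenpe) had a UMI. The class is a range of this count and not a cell type: 1186 epithelial cells had exactly 2 of the 10 and 802 exactly 3. By this count 18.3% of epithelial cells were positive in N1 (95% Clopper-Pearson interval 17.0 to 19.6) and 11.3% in N2 (8.44 to 14.8). In E1 and E2 the shares were 19.7% (18.5 to 21.0) and 8.86% (6.63 to 11.5), and in Y1 and Y2 13.6% (11.8 to 15.6) and 19.9% (17.4 to 22.5). In EY1 17.8% were positive (12.3 to 24.4) and in EY2 31.7% (29.7 to 33.7). EY2 was the highest of the 8 and E2 the lowest. The group means were 14.8% ± 4.92 for N (SD, n = 2), 14.3% ± 7.67 for E, 16.7% ± 4.45 for Y and 24.7% ± 9.84 for EY, and EY1 lay between the 2 libraries of each other genotype. The intervals cover counting error within a library only.

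Without the upper limits the shares were 18.9% and 22.5% in N, 20.7% and 12.4% in E, 21.0% and 28.7% in Y, and 27.7% and 35.5% in EY, and both EY libraries then stood above both N libraries. Where Krt13, a keratin of differentiating cells, exceeded the basal keratins, the share was lower in each library: 6.78% (28 of 413 cells) against 19.8% in N1, 8.51% (4 of 47) against 8.89% in E2, 14.7% (60 of 408) against 20.3% in E1, and 20.6% (7 of 34) against 31.9% in EY2. In EY1 0 of 8 such cells were positive, which allows a share of up to 37.5%. In neutrophils, read as background for this count, 1 of 882 cells in EY1 and 1 of 372 in EY2 were positive. In the other 6 libraries 0 were positive, of which Y1 with 381 cells allows up to 0.964% by the same interval. The median depth of neutrophils was 10959 UMIs in EY1 and 5539 in EY2, against 13534 and 18451 in the epithelial cells of the same libraries, and all were thinned to the same 2000 UMIs.

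**Figure D2:**
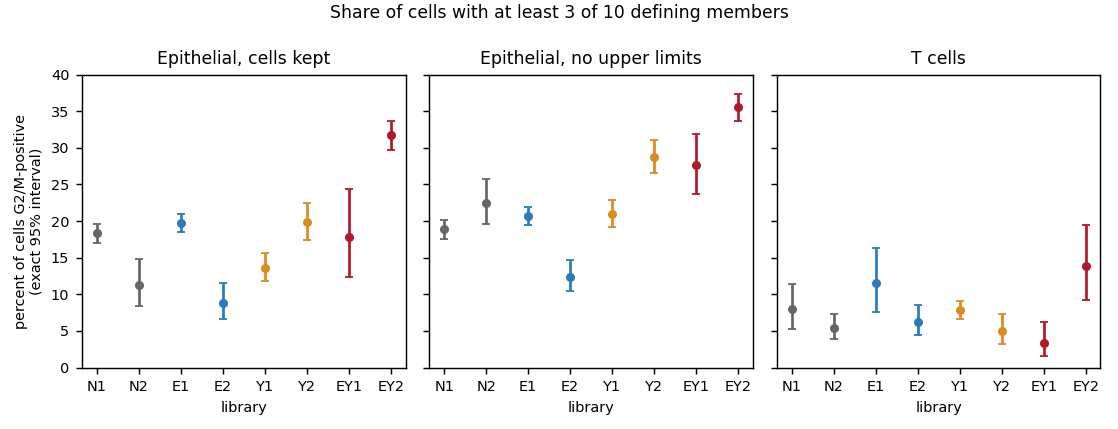
Share of G2/M-positive cells in percent for each library, with 95% Clopper-Pearson intervals, in epithelial cells with the upper limits, in epithelial cells without them, and in T cells. With the limits EY2 is the highest at 31.7% and E2 the lowest at 8.86%, and without them EY1 at 27.7% and EY2 at 35.5% lie above both N libraries.

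The number of the 10 genes seen per cell showed that EY2 differed below the limit of 3 as well as above it. No gene of the 10 was seen in 59.9% and 63.9% of epithelial cells in N, 58.4% and 68.7% in E, 68.0% and 54.8% in Y, and 46.2% and 21.3% in EY. Exactly 2 were seen in 6.56% and 7.23% in N, 6.24% and 6.51% in E, 5.98% and 8.89% in Y, and 12.4% and 22.4% in EY. At the other end, exactly 7 of the 10 were seen in 2.32% and 0.241% of cells in N, 2.39% and 0.723% in E, 1.40% and 0.999% in Y, and 0.592% and 1.09% in EY. EY2 thus exceeded the other libraries at intermediate numbers and lay within their range at high ones. With a stricter class of at least 5 of the 10, the group means were 7.31% for N, 7.47% for E, 6.72% for Y and 7.30% for EY.

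**Figure D3:**
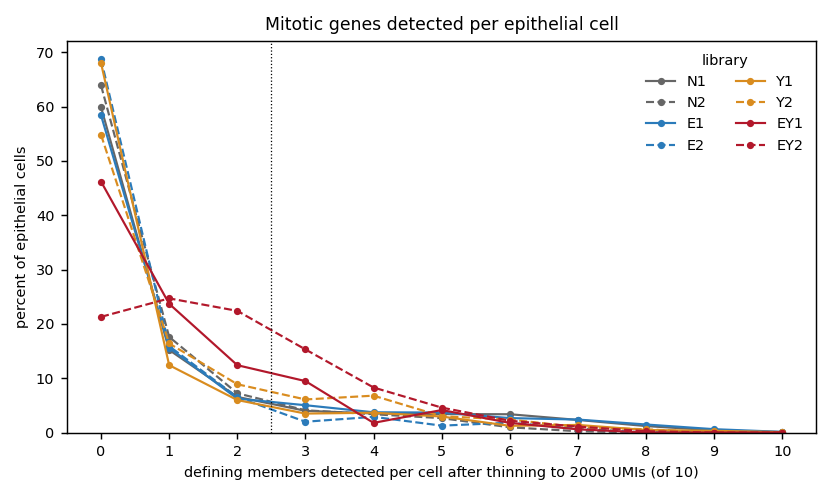
Share of epithelial cells in percent (vertical axis) by the number of the 10 defining genes with a UMI after thinning to 2000 UMIs (horizontal axis), 1 line per library, with a dotted line between 2 and 3, where the class begins. The EY2 line starts lowest, at 21.3% of cells with none, and is highest at 2 and at 3, with 22.4% and 15.3%.

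Outside the G2/M-positive class the genes separated EY from N, a comparison added after seeing the data. These are cells with 0 to 2 of the 10 genes. The 10 genes that cut the class are among the 51, so that the counts are also given for the other 41. These 41 may vary with the 10 and so may not be free of the cut, which was not tested. For the 10, calls outside the class here and below are description only, because their detection decided which cells fell outside it. Summed without the upper limits, the 51 genes made up 1739 and 2355 CPM in N, 2172 and 1861 in E, 2603 and 3486 in Y, and 4650 and 5293 in EY. Both EY libraries stood above the other 6, and both Y libraries above N and E. The median cell outside the class had UMIs for 9 and 13 of the 51 genes in N and for 27 and 28 in EY, at a median depth of 13208 and 26702 UMIs in N and 35220 and 19160 in EY. In T cells outside the class the sums were 2022 and 2488 CPM in EY against 1749 to 2042 in the other 6 libraries, and in neutrophils 926 and 1305 in EY against 596 to 1640.

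Of the 41 genes that did not define the class, 35 rose in EY against N outside it, or 85.4%, beside 22.2% of all 14080 genes tested that rose. The median of the 41 was 1.52 beside -0.04 over all genes. With the genes that cut the class counted, 43 of the 51 rose (84.3%) and none fell. Of the 51, 48 were higher in both EY libraries than in both N libraries, a count that was not made over all genes. Of all genes tested, 48.2% had a positive change. The count for the 41 was 22 without N1 and 24 without EY2. With the upper limits, 25 of the 51 rose beside 12.2% of all genes (21 of the 41), all 25 among the 43, but 0 of the 41 did so without N1, without N2 or without EY2, and 35 without EY1, the library with 139 cells outside the class under these limits. In cells in which none of the 10 was seen, 20 of the 41 rose (48.8%), beside 10.2% of all genes that rose.

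By role, with the 10 defining genes counted, all 6 CDK1 genes, all 3 of the APC/C, all 7 Aurora, checkpoint and passenger genes, all 4 cytokinesis genes and all 3 of the nuclear envelope rose outside the class, as did 4 of 6 kinetochore, 8 of 13 spindle and 8 of 9 chromosome genes. Bub1 (chr2:127801122-127831865, minus strand), a kinase of the spindle checkpoint, was at 3.05 and 6.26 CPM in N, 3.26 and 3.0 in E, 10.2 and 17.1 in Y, and 25.1 and 31.7 in EY, and rose by 2.66 in EY against N (SE 0.38, edgeR adjusted p = 0.00222). Aurka was at 2.48 and 5.2 CPM in N, 3.77 and 3.12 in E, 7.86 and 10.3 in Y, and 14.7 and 27.9 in EY, a rise of 2.53 (SE 0.42, edgeR adjusted p = 0.00359). In both kinases N and E lay together at the bottom, Y in between and EY at the top, with no overlap. Hmmr, a microtubule and Tpx2-binding spindle protein, was at 9.61 and 19.0 CPM in N, 9.95 and 7.41 in E, 26.6 and 36.9 in Y, and 57.9 and 73.0 in EY, and rose by 2.22 (SE 0.34, edgeR adjusted p = 0.00270).

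Cdc20 was at 25.4 and 27.8 CPM in N, 28.5 and 16.4 in E, 43.6 and 49.1 in Y, and 96.2 and 132 in EY outside the class, and rose by 2.11 (SE 0.27, edgeR adjusted p = 0.00171). Cks1b (chr3:89415472-89418383, minus strand) was at 38.3 and 48.3 CPM in N, 54.3 and 40.6 in E, 69.5 and 83.8 in Y, and 129 and 169 in EY, and rose by 1.79 (SE 0.21, edgeR adjusted p = 0.00139). Its promoter, printed above, holds a CHR within 100 bases of the start site. Cenpa was at 37.7 and 45.2 CPM in N, 27.6 and 21.1 in E, 48.7 and 49.4 in Y, and 87.4 and 104 in EY, and rose by 1.21 (SE 0.17, edgeR adjusted p = 0.00221). Here Y stayed close to N and E lay below both. Tmpo was at 88.0 and 102 CPM in N, 126 and 103 in E, 167 and 247 in Y, and 233 and 247 in EY, so that Y2 and EY2 were level, and rose by 1.34 (SE 0.20, edgeR adjusted p = 0.00259).

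The 8 genes not called outside the class were Cenpf, Hjurp, Nusap1, Ckap2l, Ckap5, Psrc1, Gtse1 and Ctcf. Ctcf, which organises chromatin loops and is used throughout the cycle, was at 87.9 and 82.3 CPM in N and 75.8 and 85.5 in EY, a change of -0.08 (SE 0.15). Ckap2l was at 41.5 and 55.3 CPM in N and 46.1 and 57.0 in EY, a change of 0.10 (SE 0.25). Hjurp, the chaperone that loads Cenpa, was at 9.24 and 13.8 CPM in N, 30.6 and 11.6 in E, 13 and 28.1 in Y, and 21.5 and 44.5 in EY, a change of 1.54 with an SE of 0.57 (edgeR adjusted p = 0.0598), with E1 above EY1. Of the 17 genes with both promoter elements 15 were among the called, and of the 28 with an entry but without both elements 22.

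The other comparisons outside the class gave unequal numbers of calls. YAP added to E6-E7 (EY against E) raised 44 of the 51 genes and 34 of the 41, or 82.9%, beside 20% of all genes, with 30 to 44 of the 51 when 1 library was left out. The main effect of YAP raised 42 of the 51 and 35 of the 41, or 85.4%, beside 21.6% of all genes, with 30 to 45 of the 51. YAP alone (Y against N) raised 3 of the 41, or 7.32%, and none of the 10: Bub1 by 1.60 (SE 0.37, edgeR adjusted p = 0.0372), Tmpo by 1.12 (SE 0.20, edgeR adjusted p = 0.0174) and Cks1b by 0.83 (SE 0.21, edgeR adjusted p = 0.0469), beside 6.64% of all genes, with 0 left without N1 or Y2, 1 without E1, E2 or EY1, 6 without Y1 and 8 without N2. The median of the 51 in that comparison was 0.76, with 47 of the 51 positive.

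E6-E7 added to YAP (EY against Y) raised 6 of the 41 outside the class, or 14.6%, and Ccnb2 of the 10, beside 3.57% of all genes: Cdc20 by 1.30 (SE 0.26, edgeR adjusted p = 0.0314), Tacc3, Cenpa, Cks1b, Cks2 and Anp32e. All 51 had a positive change there, with a median of 0.75, but 0 were called without Y1, Y2 or EY2, 3 without E1 and 4 without E2. For E6-E7 alone (E against N) the median was -0.23 and the smallest p belonged to Cenpa at -0.76 (SE 0.17, edgeR adjusted p = 0.213) and Cdca3 at -1.05 (SE 0.24, edgeR adjusted p = 0.224). For the interaction the median was 1.08, and the smallest p belonged to Cenpa at 1.73 (SE 0.24, edgeR adjusted p = 0.0584) and Ccnb2 at 1.75 (SE 0.31, edgeR adjusted p = 0.0944). A difference between the YAP effect with and without E6-E7 was therefore not shown for any of these genes.

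**Figure D4:**
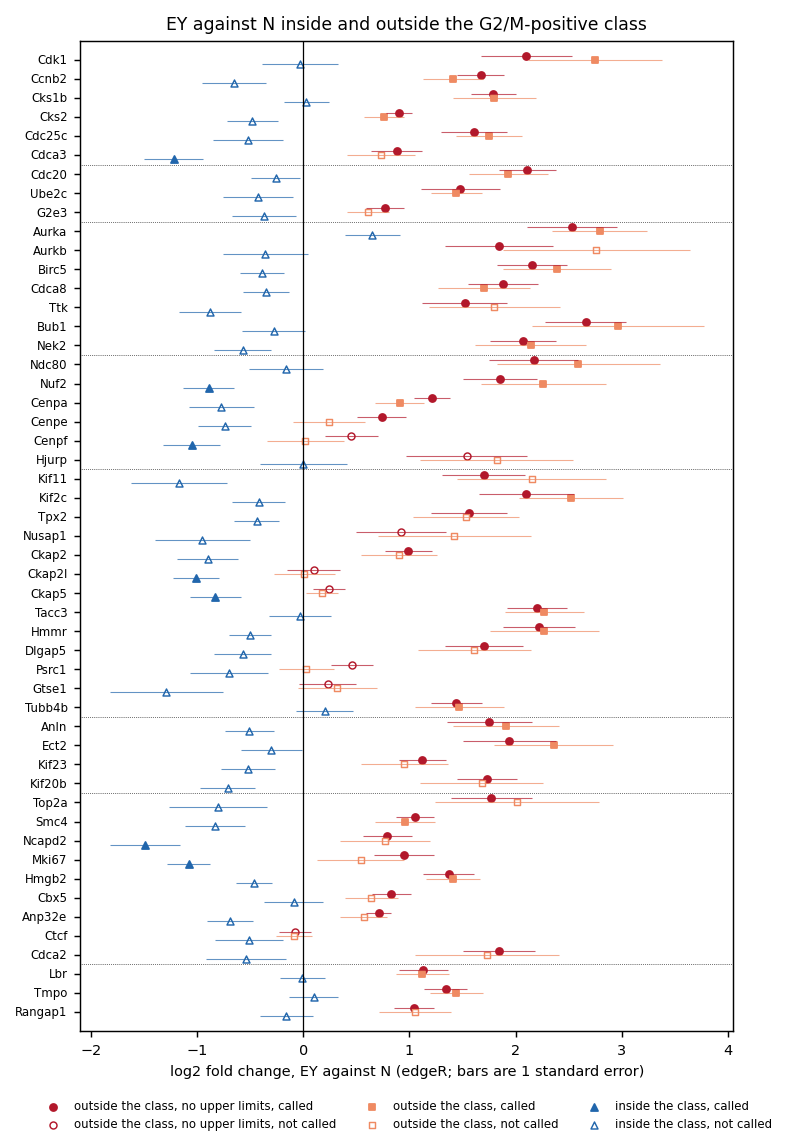
Log2 change ± SE in EY against N for each of the 51 genes outside the class without upper limits, outside the class with them, and inside the class, where filled points are calls at an adjusted p under 0.05 (edgeR). The first series lies to the right of 0 for 50 genes with 43 calls, and the last to the left for 46 with 7 calls. Both counts of calls include genes that cut the class, for which the change is description only.

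Inside the class the direction was the opposite. G2/M-positive EY cells held 9336 and 8268 CPM of the 51 genes, against 14265 and 9891 in N, 14641 and 13481 in E, and 12804 and 11583 in Y. Both EY libraries stood below the other 6. In EY against N 7 of the 51 fell and none rose, beside 7.40% of all 10941 genes tested that fell. Among the 41 that did not define the class 5 fell, or 12.2%, and 46 of the 51 changes were negative with a median of -0.51. Mki67 and Cenpf, described here, are among the genes that cut the class. Mki67 (chr7:135689784-135716361, minus strand), the chromosome surface protein Ki-67, was at 693 and 514 CPM in N, 676 and 647 in E, 579 and 581 in Y, and 303 and 272 in EY. Its change of -1.08 is description only, because its detection helped to cut the class. Ncapd2, a condensin subunit, was at 75.2 and 40.2 CPM in N, 50.8 and 66.9 in E, 55.7 and 49.2 in Y, and 14.4 and 23.6 in EY, and fell by 1.49 (SE 0.33, edgeR adjusted p = 0.0114). In both genes EY lay below every other library.

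Cdca3 inside the class was at 283 and 184 CPM in N, 152 and 236 in E, 155 and 128 in Y, and 107 and 99.1 in EY, and fell by 1.22 (SE 0.28, edgeR adjusted p = 0.0143). The other 4 that fell were Cenpf, which helped to cut the class, and Ckap2l, Nuf2 and Ckap5. EY against E gave 14 lower genes, 10 of them among the 41 (24.4%), beside 6.49% of all genes. The 14 included Mki67 and Cenpf, which helped to cut the class, and Ckap2 and Ncapd2. These calls rest on few EY libraries. The 30 positive cells of EY1 had a median of 5056 UMIs against 16354 to 23492 in the other 7 libraries. In EY against N 0 were called without N1 or EY2 and 11 without N2, and in EY against E 0 were called without EY2 and 6 without E1 or E2. Without the upper limits EY1 kept 133 positive cells with a median of 48585 UMIs, and 27 of the 51 and 20 of the 41 (48.8%) fell in EY against N, beside 16% of all genes that fell. The class is cut on 10 of these genes, and cells with exactly 3 of the 10, just past the limit, made up 9.47% and 15.3% of epithelial cells in EY against 1.99% to 6.09% in the other 6 libraries; their part in the fall was not tested.

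Other genes of the cycle were read from 2 lists. Of 75 further mitotic genes, 2 (2.67%) rose in EY against N in the pooled sums, beside 18.8% of all genes called in either direction. They were Cenpw at 1.09 (SE 0.30, edgeR adjusted p = 0.0447) and Mybl2 at 2.58 (SE 0.74, edgeR adjusted p = 0.0494). Mybl2 encodes a subunit of the complex that activates late cell cycle promoters. Outside the class without upper limits 69 of the 75 rose, beside 22.2% of all genes that rose. Inside the class 6 fell, beside 7.40% of all genes that fell, and 1 rose. Stmn1 (stathmin, a microtubule destabiliser) fell there by 1.68 (SE 0.22, edgeR adjusted p = 9.67e-04). Of 43 genes of G1/S and DNA replication, 10 (23.3%) rose in the pooled EY against N sums, beside the same 18.8% of all genes called in either direction. Among them were Hells at 2.20 (SE 0.45, edgeR adjusted p = 0.0210) and the helicase subunit Mcm6 at 1.95 (SE 0.46, edgeR adjusted p = 0.0302). The median was 1.52 over the 43 against 0.50 over the 51. Mcm6 was at 26.1 and 15 CPM in N, 86.2 and 42.1 in E, 34.0 and 62.6 in Y, and 65.0 and 94.3 in EY. In E against N all 43 had a positive change with a median of 0.82 and none called, whereas the 51 had a median of 0.07 with 32 positive. Inside the class in EY against N, 28 of the 43 were positive with a median of 0.11 and 1 rose (Ung), while the 51 were mostly negative.

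T cells (Cd3e-positive, 4798 cells, 197 to 1990 per library) gave a second cycling population from the same tongues, one in which the transgenes are not driven. By the same count 7.95% (95% interval 5.26 to 11.4) and 5.40% (3.83 to 7.37) were positive in N, 11.5% (7.62 to 16.3) and 6.23% (4.40 to 8.52) in E, 7.80% (6.66 to 9.07) and 5.01% (3.27 to 7.31) in Y, and 3.3% (1.52 to 6.17) and 13.8% (9.28 to 19.4) in EY. EY1 was the lowest and EY2 the highest of the 8. In EY against N edgeR called 0 of the 49 genes tested, beside 0.0686% of all genes, with 0 at an unadjusted p under 0.05 in edgeR and in DESeq2 and a median of 0.14. Kif2c, a microtubule depolymerase, was at 10.6 and 6.09 CPM in N and 7.89 and 24.9 in EY, a change of 0.92 (SE 0.58, edgeR adjusted p = 0.546). Of the 49, 3 were higher in both EY libraries than in both N libraries, again a count not made over all genes. In counts simulated with the same set spread, again with changes only in well counted genes, this test found 22% of genes changed by 1 on the log2 scale and 92% of those changed by 2.

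G2/M-positive epithelial cells were set against G2/M-positive T cells of the same libraries. The comparison took the 7 libraries with at least 20 positive cells of each kind, so without EY1, with library as a block, and 24 of the 41 genes that did not define the class were called, or 58.5%, beside 58.3% of all 9291 genes tested: the genes differed between the cell types as often as genes at large. The median change was -0.18 over the 41 and 0.12 over all genes, with 12 of the 41 positive against 54.9% of all genes tested. The counts by direction and role that follow have no share of all genes called in that direction beside them. Higher in epithelial cells were Anln, Psrc1, Ckap2l, Cdc20, Cdc25c, Tubb4b, Ect2 and Ckap2. Anln (chr9:22332012-22389188, minus strand) was at 274 ± 62.1 CPM in epithelial cells and 42.6 ± 14.8 in T cells (mean ± SD, n = 7 libraries), higher by 2.67 (SE 0.15, edgeR adjusted p = 8.79e-11), and Psrc1, a spindle protein, by 2.39 (SE 0.31, edgeR adjusted p = 3.91e-06). Cdc20 was at 333 ± 96.2 CPM against 148 ± 27.9, higher by 1.16 (SE 0.13, edgeR adjusted p = 9.71e-07).

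Lower in epithelial cells were 16 of the 41, led by Hjurp at -1.12 (SE 0.16, edgeR adjusted p = 1.47e-05), Ndc80 at -1.0 (SE 0.17, edgeR adjusted p = 6.88e-05), Anp32e at -0.89 (SE 0.11, edgeR adjusted p = 3.06e-06) and the spindle kinesin Kif11 at -0.88 (SE 0.19, edgeR adjusted p = 6.30e-04). Leaving aside Top2a and Mki67, which define the class, 6 of the other 7 chromosome structure and chromatin genes were lower, Cbx5 being the exception at -0.10 (SE 0.15), and of the 4 cytokinesis genes 2 were higher and none lower. Positive T cells had a median of 4942 to 15730 UMIs in these libraries and positive epithelial cells 16354 to 23492. Leaving out 1 library left 22 to 25 of the 41 called.

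**Figure D5:**
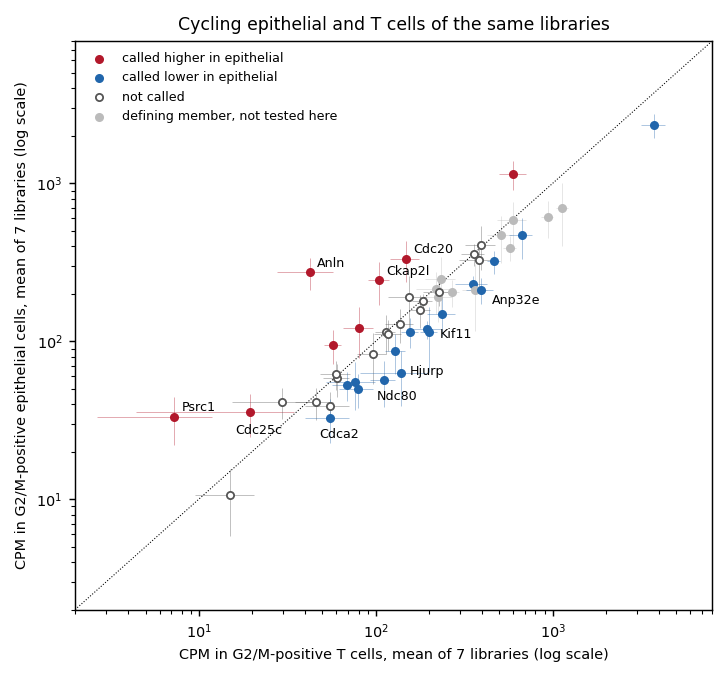
Mean CPM of the genes in G2/M-positive T cells (horizontal axis) and epithelial cells (vertical axis) of 7 libraries, both on log scales, with bars of 1 SD and the called genes in colour. Anln, at 274 against 42.6 CPM, and Psrc1 lie farthest above the diagonal, and Hjurp is among those below it.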

How the data were processed

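The data were 8 single-cell RNA sequencing libraries of mouse tongue epithelium, 2 per genotype. The deposited matrices hold UMI counts per gene and cell, which the authors made with Cell Ranger 5.0.0 (from the matrix header) on mm10; the labels name the v2 kit and the study's methods v3.1. The kit version was not settled here.

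Cells, classes and limits were as given in the report. Counts were summed per library, genes were kept by filterByExpr, scaled by TMM and tested with edgeR 4.0.16 (R 4.3.3), with Benjamini-Hochberg adjustment over all genes tested, in 1 fit of all 8 libraries. DESeq2 1.42.0 was an alternative. The G2/M-positive epithelial and T cell sums were fitted with library as a block. No doublet caller was run, and 65 of 12957 epithelial cells held a Cd3e UMI. The tests were checked on simulated counts. Replicates were numbered in accession order.

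Genes were named by rule: the 2 of highest mean CPM per role; in each comparison the 3 called genes of largest change per direction at 10 CPM or more in 1 group or, with none called, the 2 of smallest p, and any called against the majority; against T cells the 5 largest per direction; and of other mitotic genes the 3 called of highest mean CPM. Other genes, and genes named in results added later, were chosen after their values were seen. The genes and lists were chosen with earlier results of these data known. The split inside and outside the class, and the tests without upper limits on that split, were added after seeing the data. Gene positions are from GENCODE vM21.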

Additional observations from a re-analysis of the deposited data

How the results depend on the processing

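No paired analysis was possible because the replicates were numbered in accession order and the labels give no number that ties libraries across groups. Alternatives were followed for 46 values of named genes, and none of these changed direction. Other named values were not followed in this way. Ckap2l outside the class had means of 48.4 CPM in N and 51.5 in EY without the upper limits. With them its means were 45.2 CPM in N and 44.6 in EY. The median change of the 51 in pooled cells did change direction. Without EY2 it went from 0.50 to -0.09 in EY against N and from 0.47 to -0.12 in EY against E. Also without EY2 it went from 0.33 to -0.23 in EY against Y and from 0.21 to -0.02 in the E6-E7 effect. In Y against N it went from 0.09 to -0.27 without N2 and -0.11 without Y2. In E against N it went from 0.07 to -0.62 without E1, -0.28 without N2, -0.19 without upper limits and -0.01 without G2/M-positive cells. In the interaction it went from 0.21 to -0.33 without N1, -0.32 without EY2 and -0.15 without E2. In T cells the median of EY against N went from 0.14 to -0.49 without EY2 and -0.18 without N2. Over the alternatives for the 46 values, 500 kept their side of the threshold, 16 passed it newly and 52 no longer did. With no filter on low counts the pooled calls among the 51 genes were 1 in E against N (beside 1.69% of all genes), 1 in Y against N (5.56%), 21 in EY against N (19.7%), 18 in EY against E (18.0%), 8 in EY against Y (9.74%), 1 in the interaction (3.09%), 1 in the E6-E7 effect (3.52%) and 12 in the YAP effect (14.9%), with 33 of 41 outside the class (20.8%) and 16 inside it (13.6%). Without upper limits they were 1 in Y against N (10.2%), 10 in EY against N (40.8%), 22 in EY against E (38.7%) and 15 in the YAP effect (41.4%), with 35 of 41 outside the class, 27 inside it, and mean positive shares of 20.7% in N and 24.9% in Y. With keratins of at least 2% of UMIs they were 6 in EY against N (26.7% of all genes), 3 in EY against E (21.6%) and 1 in EY against Y (8.34%), with a share of 10.9% in Y. Leaving out cells with an immune marker gave 2 in EY against N (21.2%), DESeq2 size factors 2 (19.4%), and DESeq2 itself 5 (13.4%), with 2 in EY against E (11.9%). Leaving out G2/M-positive cells gave 25 in EY against N (22.5%), 25 in EY against E (18.2%) and 5 in the YAP effect (9.86%).

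The positive shares moved with the class. At 2 or more of 10 they were 21.7% in N, 24.2% in Y and 42.1% in EY, and at 5 or more 7.31%, 6.72% and 7.30%. Thinned to 4000 UMIs they were 22.6%, 24.5% and 43.9%, and without thinning 39.9% for N, 38.4% for E, 41.9% for Y and 69.9% for EY. The cause was not tested.

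Leaving out 1 library at a time gave 0 to 1 pooled calls in EY against N, 0 to 1 in EY against E and 0 to 2 in the YAP effect, the last 0 without N1, N2, E1, E2, Y2, EY1 or EY2. Without upper limits it gave 0 to 17, 3 to 30 and 11 to 18. Outside the class it gave 0 to 35 of 41, and there without upper limits 22 to 36 of 41 in EY against N, 0 to 8 in Y against N, 30 to 44 in EY against E, 0 to 9 in EY against Y and 30 to 45 in the YAP effect. Inside the class it gave 0 to 11 in EY against N and 0 to 17 in EY against E, and against T cells 22 to 25 of 41. With 2 libraries per group, a permutation of the shares cannot reach 0.05, and a lone library left in a group is assumed to vary like the others.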
